A study of Mus musculus with 12 samples.

Results

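Genes whose products write, erase or read histone lysine methylation, and genes for the zinc-dependent histone deacetylases, were examined in mouse ovarian cancer cells and mouse macrophages exposed to the kinase inhibitor rebastinib. They were chosen by a rule on symbols that uses no measured value, though earlier results of these data were known when it was set. Every gene whose GENCODE symbol begins with Kdm, Kmt, Setd, Hdac or Cbx and goes on with a number, or with a letter and a number, was taken. To these Ezh1, Ezh2, Eed, Suz12, Ehmt1, Ehmt2, Suv39h1, Suv39h2, Nsd1, Nsd2, Nsd3, Dot1l and Ash1l were added. The rule was met by 77 of the 55421 genes counted, 67 of them protein coding. The other members were 8 processed pseudogenes of Cbx3, the pseudogene Kdm4dl and the antisense transcript Kdm6bos.

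The study profiled 12 RNA-seq libraries in 4 groups of 3. ID8 is a cell line from mouse ovarian surface epithelium that grows as an ovarian cancer, labelled female, of C57BL6J background and wildtype. PMJ2R is a peritoneal macrophage line, labelled female, of C57BL6J background and carrying the oncogenes v-raf and v-myc, so both its control and its treated cells had these oncogenes. Each line was profiled untreated and after 6 h with 5 nM rebastinib, an inhibitor of the angiopoietin receptor TIE2. The chemotherapy arms that the study's design names were not analysed here. The labels do not say whether the 3 libraries of a group came from separate cultures, so every p-value here reflects the spread among these libraries alone, which may be technical.

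As background, methyl groups on histone lysines are placed by SET-domain enzymes and DOT1L, removed by the flavin-dependent KDM1 and the Jumonji KDM enzymes, and bound by chromodomain proteins such as the chromobox (Cbx) family. Methylation of H3K4 and H3K36 is found at active genes, that of H3K9 and H4K20 at silent heterochromatin, and that of H3K27, made by Polycomb repressive complex PRC2, at developmental genes that are kept off. Histone deacetylases remove acetyl groups, mostly as subunits of corepressor complexes, and in macrophages several of these enzymes are known to shape inflammatory gene expression.

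Library totals ran from 22102800 to 23486355 counts in ID8 control, 19057954 to 24971090 in ID8 rebastinib, 23200008 to 27070556 in PMJ2R control and 19025504 to 20242502 in PMJ2R rebastinib. Of 12 macrophage markers 11 reached 1 CPM (counts scaled to a common library size) in both PMJ2R groups and 3 in both ID8 groups. Of 10 markers of ovarian surface epithelium and mesothelium, 10 did so in ID8 control, 9 in ID8 rebastinib and 0 in PMJ2R. Of 5 fibroblast markers 3 did so in both ID8 groups and 0 in PMJ2R, and their summed level in ID8 was 239 to 256 CPM in control and 120 to 161 CPM with rebastinib, with Lum at 0 in both. Lymphocyte and endothelial markers stayed under that level in all groups, and Tek, the gene for TIE2, was at 0 in both ID8 groups. The share of counts from mitochondrially encoded genes was 2.92% to 3.14% in ID8 control and 4.74% to 5.12% with rebastinib, and 3.50% to 4.25% and 5.51% to 5.88% in PMJ2R. Ribosomal protein genes took 4.10% to 4.74% and 7.55% to 9.31% of counts in ID8, and 4.43% to 5.13% and 6.64% to 6.90% in PMJ2R, control first. Genes overlapping ribosomal RNA took 0.106% to 0.355% and 1.05% to 1.60% in ID8, and 0.0927% to 0.172% and 5.63% to 5.99% in PMJ2R. These shares moved with the treatment in both lines, and their part in the results that follow was not tested. In such bulk libraries a smaller share of cells with a transcript and less of it per cell cannot be told apart.

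After rebastinib, more of these genes were lower than higher in both lines, a balance that turned in ID8 once length and GC trends were removed (31 higher and 28 lower). In ID8, 33 of the 64 coding members tested fell, 18 rose and 13 were not called. In PMJ2R, 36 of 65 fell, 21 rose and 8 were not called. A gene was called, and is said to have risen or fallen, at an adjusted p under 0.05 in edgeR's quasi-likelihood test, adjusted over all genes tested. Most genes of the transcriptome were called in these comparisons: in ID8 38.4% of 14829 genes were higher and 42.0% lower, against 28.1% and 51.6% of the members, and in PMJ2R 40.1% of 14010 genes were higher and 43.6% lower, against 32.3% and 55.4% of the members. The median log2 fold change of the members was -0.22 in ID8 and -0.34 in PMJ2R, beside -0.07 and -0.05 over all genes tested.

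The members are long genes, with a median exon length of 6775 bases beside 3859 for all genes tested in ID8, and 35 of the 64 lay in the longest quartile. Over all genes tested in ID8 the median log2 fold change was 0.44 in the shortest quartile and -0.31 in the longest, and in PMJ2R it was 0.35 and -0.19. With the length and GC trends of each library removed, 31 members were higher and 28 lower in ID8, where 40.8% of all genes were higher and 41.2% lower, and the members' median turned from -0.22 to 0.10. In PMJ2R 28 were then higher and 32 lower, beside 39.9% and 43.0% of all genes, and the median stayed negative at -0.21. Length, RNA composition and treatment cannot be told apart in these libraries. On library totals alone, without edgeR's TMM scaling, the median of all genes moved from -0.07 to -0.50 in ID8 and from -0.05 to -0.60 in PMJ2R, and the log2 fold changes of the members moved down with it. In ID8 6 members were then higher and 48 lower, beside 23.9% and 57.2% of all genes, and in PMJ2R 12 were higher and 48 lower, beside 22.2% and 61.9%. The values below are on the TMM scale of each line's 6 libraries, relative to its median of all genes. A value that turned under one of these settings, and was called there or on the TMM scale, is given with its other sign. For each gene whose values are given library by library after rebastinib, the 3 control and 3 treated libraries of a line did not overlap, except Kdm5b and Setd5 in ID8. Those genes were chosen by p-value, call or fold change in these same libraries. The separation, here and where it is given below, therefore follows largely from the choice and adds no support. The share of all genes without overlap was not computed.

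**Figure D1:**
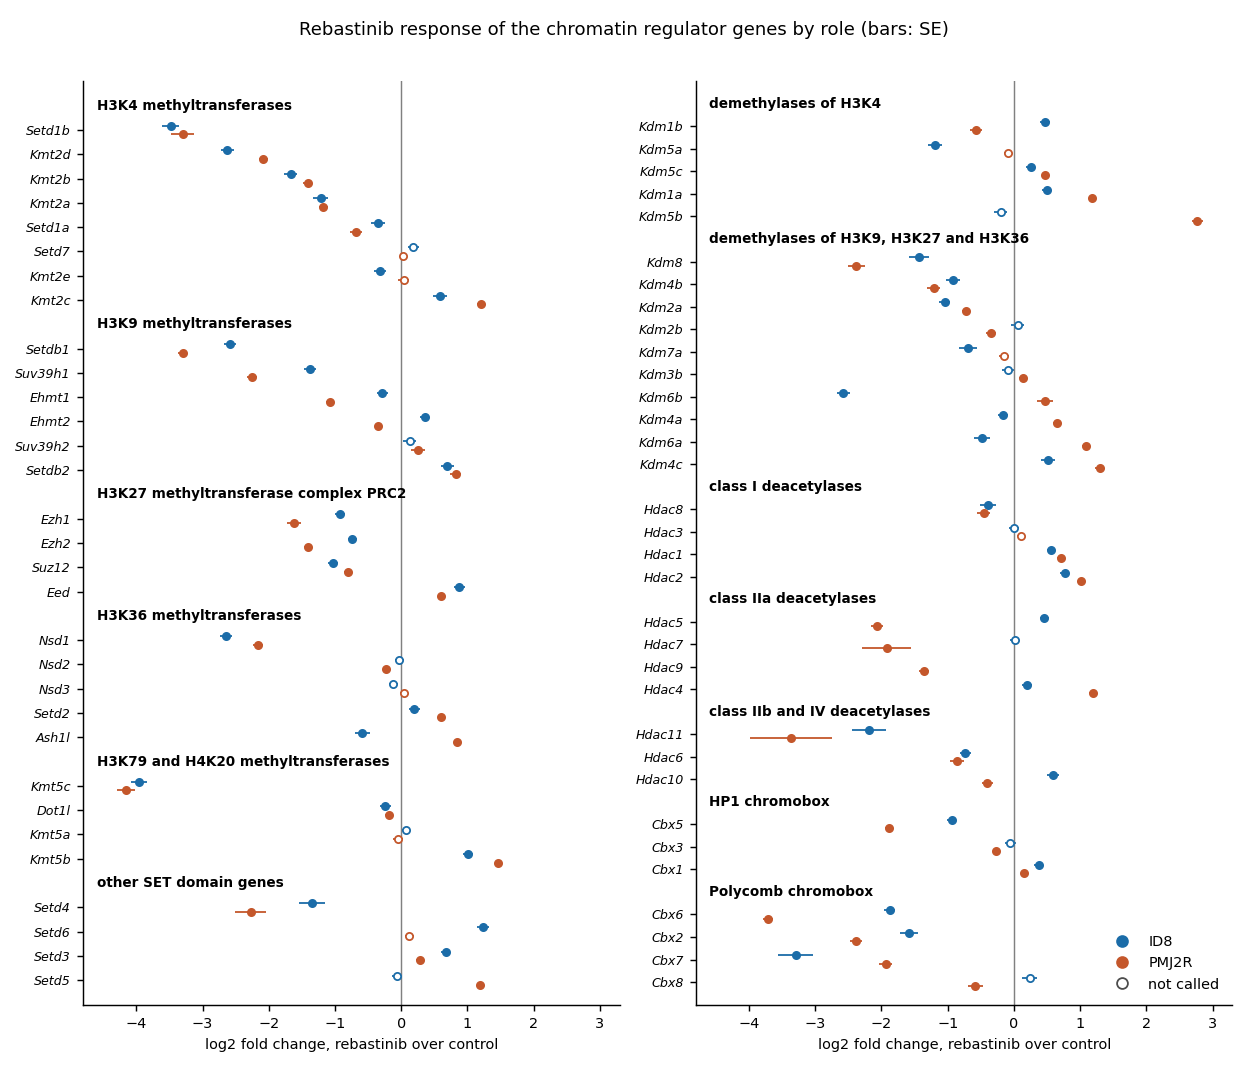
Log2 fold change of the tested coding members that are reported, after rebastinib (x axis) in ID8 (blue) and PMJ2R (orange), grouped by role, with bars for the SE and open circles for genes not called. Kmt5c, Setd1b, Setdb1 and Cbx6 lie far to the left in both lines, while most rises are under 1.5, and on library totals the median of all genes lies lower, at -0.50 in ID8 and -0.60 in PMJ2R, and the members move down with it.

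The largest decrease in either line was that of Kmt5c (ENSMUSG00000059851, chr7:4740115-4747514, plus strand of GRCm38), the enzyme that trimethylates H4K20 in heterochromatin. Its level was 33.4, 35.0 and 33.9 CPM in the ID8 control libraries and 1.98, 2.09 and 2.41 CPM with rebastinib. The PMJ2R control libraries had 37.2, 33.4 and 42.2 CPM and the treated ones 2.30, 1.56 and 2.47 CPM. Every treated library lay far below every control library of its line. The log2 fold change was -3.96 (SE 0.118, adjusted p = 4.47e-12) in ID8 and -4.16 (SE 0.140, adjusted p = 1.06e-14) in PMJ2R, which is 15.6-fold and 17.8-fold lower than control.

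Kmt5b (ENSMUSG00000045098, chr19:3767421-3818303, plus strand), the close relative that makes the dimethyl mark on the same residue, rose instead. It was at 52.8, 56.6 and 49.9 CPM in ID8 control and 104, 109 and 108 CPM in ID8 rebastinib. In PMJ2R the values were 76.6, 77.4 and 73.3 CPM and 206, 212 and 211 CPM. No treated library overlapped a control library, and the log2 fold change was 1.01 (SE 0.0727, adjusted p = 1.23e-08) in ID8 and 1.47 (SE 0.0464, adjusted p = 5.32e-15) in PMJ2R. A non-coding gene on the opposite strand, Gm16066, shares 927 exon bases with Kmt5b, and whether the counting used strand is not given in the sources used here.

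The promoters of this pair are shown with those of the H3K9 enzymes Setdb1 and Setdb2, because in both pairs one gene fell and the other rose in both lines. Each is the RefSeq window from 250 bases before to 50 bases after the gene's start in GRCm38.p6, read 5′ to 3′ on the gene's strand, with GC boxes (GGGCGG on either strand) in capitals. The windows are chr7:4739877-4740176 on the plus strand, chr19:3767171-3767470 on the plus strand for the first of the 2 RefSeq starts listed, chr3:95357153-95357452 on the minus strand and chr14:59440831-59441130 on the minus strand.
Kmt5c: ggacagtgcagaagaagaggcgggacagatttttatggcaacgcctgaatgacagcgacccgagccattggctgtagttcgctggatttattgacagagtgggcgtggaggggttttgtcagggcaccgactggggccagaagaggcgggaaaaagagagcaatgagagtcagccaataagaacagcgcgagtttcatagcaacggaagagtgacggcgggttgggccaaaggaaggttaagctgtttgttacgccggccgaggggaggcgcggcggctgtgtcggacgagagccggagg
Kmt5b: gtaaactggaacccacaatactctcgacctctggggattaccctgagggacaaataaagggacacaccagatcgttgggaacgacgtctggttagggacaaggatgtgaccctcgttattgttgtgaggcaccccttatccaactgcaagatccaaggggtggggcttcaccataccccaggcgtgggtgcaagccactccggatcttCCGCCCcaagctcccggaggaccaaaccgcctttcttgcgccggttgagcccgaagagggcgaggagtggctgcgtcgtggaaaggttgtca
Setdb1: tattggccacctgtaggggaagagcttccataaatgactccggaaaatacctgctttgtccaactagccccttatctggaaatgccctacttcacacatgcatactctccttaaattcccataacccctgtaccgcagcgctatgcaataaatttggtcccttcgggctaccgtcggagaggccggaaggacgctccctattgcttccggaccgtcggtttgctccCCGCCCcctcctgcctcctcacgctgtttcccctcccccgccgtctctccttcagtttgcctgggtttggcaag
Setdb2: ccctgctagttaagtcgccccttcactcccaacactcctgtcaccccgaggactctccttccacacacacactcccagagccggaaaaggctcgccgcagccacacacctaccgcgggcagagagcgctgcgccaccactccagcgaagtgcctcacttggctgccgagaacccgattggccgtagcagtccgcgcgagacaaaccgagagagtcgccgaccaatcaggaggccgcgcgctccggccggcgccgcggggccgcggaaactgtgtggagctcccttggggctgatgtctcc
RefSeq windows were found for 50 of the 67 coding members. The GC box was present in 1 copy in the windows of Kmt5b and Setdb1 and in 0 copies in those of Kmt5c and Setdb2, so its presence did not follow the direction of change in these pairs. It was found in 33 of the 50 members' windows (66.0%), in 64.2% of the windows of genes tested in ID8 and in 35.9% of all 27025 windows. CCAAT, searched on both strands, was found in 23 of the 50 (46.0%), beside 39.1% for genes tested in ID8 and 37.9% of all windows. The members' windows had a median of 25 CG dinucleotides and 62.7% GC, and those of genes tested in ID8 had 21 and 61.0%. Such a match is a description of the letters and shows no binding.

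The other genes of this role had smaller values. Kmt5a, the enzyme for H4K20 monomethylation, was not called in either line, with log2 fold changes of 0.071 (adjusted p = 0.319) and -0.054 (adjusted p = 0.499). On library totals it was called lower in both lines, and the ID8 value turned to -0.36. With length and GC trends removed it was called higher in both, and the PMJ2R value turned to 0.20. It was among the most abundant members per length, at 61.7 ± 0.765 CPM per kilobase of exon (SD, n = 3) in ID8 control on the scale of the 6 control libraries. Kmt5a was called without PMJ2R control replicate 1 (log2 fold change -0.14, adjusted p = 0.0306). Dot1l, the H3K79 methyltransferase, fell slightly in both lines, with log2 fold changes of -0.24 (SE 0.0794, adjusted p = 0.0127) and -0.19 (SE 0.0535, adjusted p = 0.00392), but was at 0.17 and 0.28 and called higher with length and GC trends removed. The role's median of -0.08 in ID8 and -0.12 in PMJ2R became 0.24 in both under that setting. Dot1l was not called in ID8 without ID8 control replicate 1 or ID8 rebastinib replicate 2, with log2 fold changes of -0.21 and -0.17 in that order and adjusted p-values from 0.057 to 0.0965.

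Among the H3K9 methyltransferases Setdb1, Suv39h1 and Ehmt1 fell in both lines and Setdb2 rose in both. Setdb1 (ENSMUSG00000015697, chr3:95323525-95357202, minus strand), which trimethylates H3K9 at retroelements with the corepressor TRIM28, was at 63.3, 67.9 and 64.4 CPM in ID8 control and at 11.7, 10.8 and 10.1 CPM with rebastinib. In PMJ2R it went from 112, 111 and 111 CPM to 10.2, 11.5 and 12.2 CPM. The treated libraries of both lines thus read alike, on each line's own scale, from different starting points. The log2 fold change was -2.59 (SE 0.0884, adjusted p = 1.29e-11) in ID8 and -3.30 (SE 0.0676, adjusted p = 4.45e-17) in PMJ2R. Setdb2, its relative, had means of 12.9 ± 0.990 and 20.8 ± 1.74 CPM (SD, n = 3) in ID8 control and rebastinib, and of 13.3 ± 0.265 and 23.5 ± 0.853 CPM in PMJ2R. Its log2 fold changes were 0.70 (SE 0.103, adjusted p = 2.08e-05) and 0.82 (SE 0.0780, adjusted p = 1.86e-08).

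Suv39h1, an X-linked enzyme that trimethylates H3K9 at pericentric repeats, was at 55.1, 58.7 and 56.0 CPM in ID8 control and 23.3, 19.4 and 22.5 CPM in ID8 rebastinib. The PMJ2R values were 54.9, 54.0 and 54.2 CPM and 11.2, 12.2 and 10.7 CPM. The groups did not overlap, the log2 fold changes were -1.38 (SE 0.0865, adjusted p = 3.20e-09) and -2.25 (SE 0.0721, adjusted p = 5.89e-15), and Gm14820 on the opposite strand shares 767 exon bases. Its paralog Suv39h2 was not called in ID8 (0.12, adjusted p = 0.239) and rose slightly in PMJ2R, by 0.25 (SE 0.105, adjusted p = 0.0348), though it was at -0.31 and called lower on library totals. In ID8 it too turned, to -0.31, on library totals. Suv39h2 was not called in PMJ2R without PMJ2R control replicate 1, PMJ2R rebastinib replicate 1, PMJ2R rebastinib replicate 2 or PMJ2R control replicate 3, with log2 fold changes of 0.17, 0.22, 0.25 and 0.20 in that order and adjusted p-values from 0.0663 to 0.162.

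Ehmt2 (G9a) and Ehmt1 (GLP) form the heterodimer that dimethylates H3K9. Ehmt1 fell, with log2 fold changes of -0.29 (SE 0.0831, adjusted p = 0.00575) in ID8 and -1.08 (SE 0.0578, adjusted p = 4.98e-12) in PMJ2R, although the ID8 value was 0.058 with length and GC trends removed. Ehmt2 was among the most abundant members per length in PMJ2R control cells. Its level was 241, 225 and 229 CPM in ID8 control and 319.8, 286 and 281 CPM in ID8 rebastinib. In PMJ2R it was 304, 311 and 316 CPM and 246, 248 and 234 CPM. It therefore rose in ID8 and fell in PMJ2R, with log2 fold changes of 0.35 (SE 0.0709, adjusted p = 3.76e-04) and -0.35 (SE 0.0440, adjusted p = 7.17e-07), of which the first became -0.085 on library totals and the second 0.089 with length and GC trends removed. Over the 6 genes of this role the median log2 fold change was -0.08 in ID8, which turned to 0.13 with those trends removed, and -0.72 in PMJ2R.

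The role of H3K4 methyltransferases held 8 genes, among them the MLL relative Kmt2e, which has no known H3K4 activity. Of these, 6 fell in ID8, Kmt2e included, and 5 in PMJ2R, beside 42.0% and 43.6% of all genes tested. Kmt2c rose in both on the TMM scale. The role's median was -0.79 in ID8 and -0.93 in PMJ2R, and it was -0.39 and -0.56 with length and GC trends removed, when Setd7 was also called higher in both lines. Setd1b (ENSMUSG00000038384, chr5:123142193-123168629, plus strand), a catalytic subunit of the SET1 complexes, had 59.6, 52.8 and 45.0 CPM in ID8 control and 4.59, 4.98 and 4.52 CPM with rebastinib. Its PMJ2R values were 70.6, 84.2 and 101 CPM and 6.96, 10.1 and 8.75 CPM, with a wide control spread. The log2 fold change was -3.48 (SE 0.126, adjusted p = 1.84e-11) in ID8 and -3.30 (SE 0.169, adjusted p = 8.32e-08) in PMJ2R. Setd1a, the alternative catalytic subunit, also fell, with log2 fold changes of -0.36 (SE 0.105, adjusted p = 0.0061) and -0.69 (SE 0.0875, adjusted p = 1.45e-06), and was at 0.010 in ID8 with length and GC trends removed. It shares 3523 exon bases on its own strand with Gm49388, so its counts are uncertain.

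Kmt2d, the larger partner of Kmt2c in monomethylating enhancers, had 301, 284 and 235 CPM in ID8 control and 46.8, 42.0 and 43.8 CPM with rebastinib. In PMJ2R it had 318, 332 and 386 CPM and 78.1, 82.1 and 84.0 CPM. The treated libraries lay below the controls in both lines, with log2 fold changes of -2.63 (SE 0.0946, adjusted p = 1.83e-11) and -2.08 (SE 0.0658, adjusted p = 1.59e-14). Kmt2c, in contrast, rose by 0.59 (SE 0.106, adjusted p = 1.39e-04) in ID8, a value of 0.15 and not called on library totals, and by 1.2 (SE 0.0555, adjusted p = 6.72e-13) in PMJ2R. Kmt2b, which methylates H3K4 at promoters, was at 85.6, 81.0 and 71.8 CPM in ID8 control and 24.9, 21.5 and 28.1 CPM in ID8 rebastinib. It was at 90.7, 92.5 and 108 CPM and 36.1, 36.3 and 37.1 CPM in PMJ2R, for log2 fold changes of -1.67 (SE 0.101, adjusted p = 2.19e-09) and -1.41 (SE 0.0689, adjusted p = 1.41e-12). Kmt2a (MLL1) fell by a similar amount in both lines (-1.22 and -1.18), while Kmt2e, an MLL relative without known H3K4 activity, fell in ID8 (-0.33, adjusted p = 0.00492), a call lost with length and GC trends removed, and was not called in PMJ2R (0.034, adjusted p = 0.708, and -0.52 on library totals). Kmt2e was called without PMJ2R control replicate 3 (log2 fold change 0.15, adjusted p = 0.00151). Setd7, which monomethylates H3K4 and many other proteins, was not called in either line (0.18, adjusted p = 0.0501, and 0.025, adjusted p = 0.652), and stood at -0.25 and -0.53, called lower, on library totals. Setd7 was called in ID8 without ID8 rebastinib replicate 1 or ID8 rebastinib replicate 2, with log2 fold changes of 0.20 and 0.25 in that order and adjusted p-values from 0.0226 to 0.0342.

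**Figure D2:**
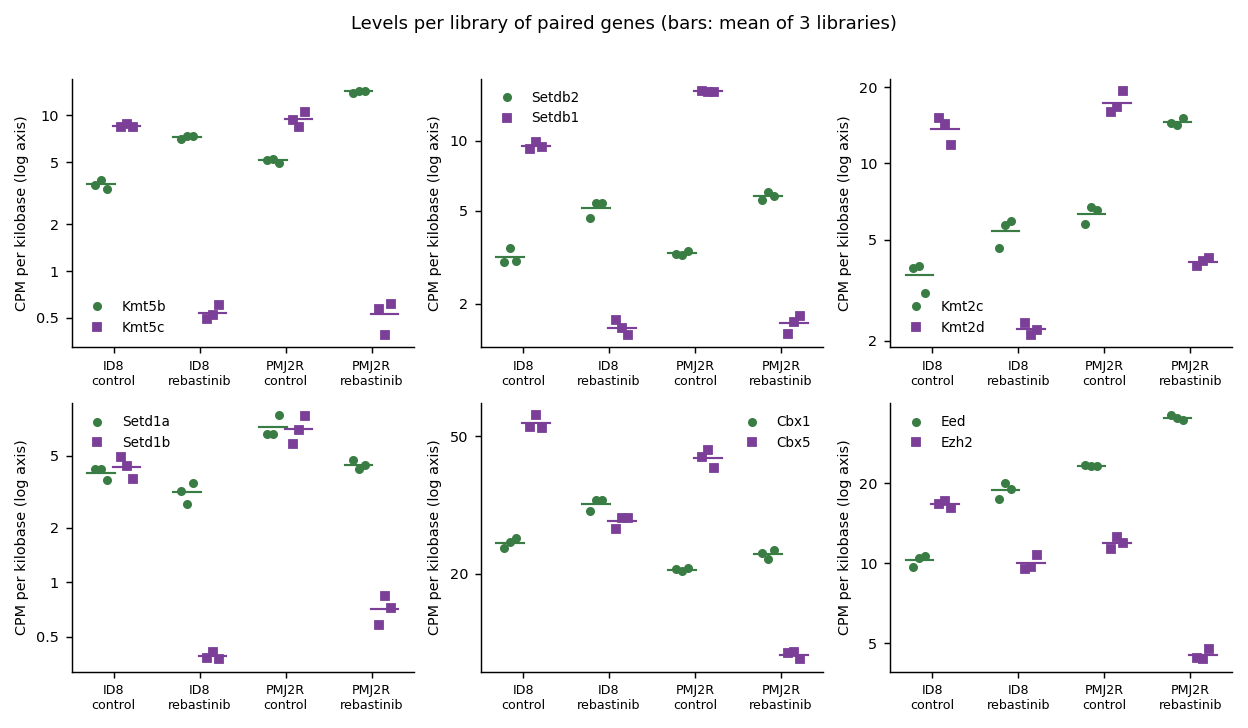
Levels of 6 pairs of functionally related members, in CPM per kilobase of exon (log axis), as points for each library and bars for the mean of 3, in the 4 groups. In each pair the gene drawn as purple squares fell in both lines, and Kmt5b, Setdb2 and Kmt2c, drawn as green circles, rose in both on the TMM scale (Cbx1 turned to -0.058 and -0.41 on library totals).

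Because pairs of enzymes share a substrate, the ratio of the 2 genes within each library was also computed per length, a quantity that no scaling of the library can change. The pairs were chosen after the values were seen, and the ratios are a description without a test. Which gene of a pair reads higher rests on the length used, here the summed exon length. For Kmt5b that length is 14752 bases and the longest transcript 6130, and for Kmt5c they are 4001 and 2774. The shift between control and treated libraries does not depend on the length used. The log2 ratio of Kmt5b to Kmt5c lay between -1.32 and -1.19 in the ID8 control libraries and between 3.60 and 3.82 in the treated ones. In PMJ2R it lay between -1.09 and -0.67 and between 4.53 and 5.2. On summed exon length Kmt5c thus read higher in every control library and Kmt5b in every treated library, and the order on another length was not tested. The ratio of Setdb2 to Setdb1 crossed zero in the same way, lying between -1.62 and -1.52 in ID8 control and between 1.45 and 1.87 with rebastinib. In PMJ2R its ranges were between -2.33 and -2.27 and between 1.71 and 1.91. For Kmt2c over Kmt2d the ratio lay between -1.97 and -1.86 and between 0.99 and 1.44 in ID8, control first, and between -1.57 and -1.31 and between 1.79 and 1.88 in PMJ2R. Here too the order of the genes on summed exon length was reversed in every treated library. Setd1a and Setd1b were near parity on summed exon length in control cells, with a log2 ratio between -0.23 and -0.013 in ID8 and between -0.072 and 0.18 in PMJ2R. With rebastinib the ratio lay between 2.72 and 3.24 and between 2.34 and 3.03, so on that length Setd1a read higher in every treated library. The counts of Setd1a are uncertain, since it shares 3523 exon bases with Gm49388 on its own strand, and its ratios to Setd1b have the same limit. A ratio shows unequal change and not that one gene of a pair was constant.

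Of the 4 genes listed for PRC2, the H3K27 methyltransferase, 3 fell in both lines, also on library totals and with length and GC trends removed. Of the 12398 genes tested in both lines, 26.1% did so under these 3 scalings. Ezh2, the main catalytic subunit of dividing cells, fell with log2 fold changes of -0.74 (SE 0.0726, adjusted p = 3.06e-07) in ID8 and -1.41 (SE 0.0621, adjusted p = 3.72e-13) in PMJ2R, from 112 ± 3.36 to 66.8 ± 4.41 CPM and from 79.7 ± 3.94 to 30.1 ± 1.52 CPM (SD, n = 3). Ezh1, the alternative catalytic subunit, had log2 fold changes of -0.92 and -1.62, and the scaffold subunit Suz12 had -1.03 and -0.80. Eed, the subunit that binds trimethylated H3K27, rose instead, by 0.88 (SE 0.0793, adjusted p = 1.29e-07) in ID8 and 0.60 (SE 0.0461, adjusted p = 8.67e-10) in PMJ2R, the latter being 0.044 and not called on library totals. Within libraries the log2 ratio of Eed to Ezh2 per length lay between -0.79 and -0.61 in ID8 control and between 0.82 and 1.05 with rebastinib, and between 0.89 and 1.05 and between 2.86 and 3.03 in PMJ2R.

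Among the genes for chromodomain proteins that bind methylated H3K27 as part of Polycomb complex PRC1, Cbx2, Cbx6 and Cbx7 fell in both lines, also on library totals and with length and GC trends removed, and Cbx8 fell in PMJ2R. Cbx6 (ENSMUSG00000089715, chr15:79823896-79834688, minus strand) had the highest counts of these. It was at 143, 136 and 137 CPM in ID8 control and 41.9, 38.2 and 33.4 CPM in ID8 rebastinib. In PMJ2R it dropped from 106, 114 and 114 CPM to 7.67, 9.43 and 8.25 CPM. The log2 fold change was -1.88 (SE 0.0853, adjusted p = 1.49e-10) in ID8 and -3.72 (SE 0.0755, adjusted p = 4.45e-17) in PMJ2R. The gene Npcd shares 563 exon bases with Cbx6 on the same strand.

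Cbx7 fell in ID8 from the low level of 4.05 ± 0.129 to 0.398 ± 0.157 CPM (SD, n = 3), a log2 fold change of -3.30 (SE 0.266, adjusted p = 3.88e-08). In PMJ2R it fell from 22.0 ± 1.19 to 5.76 ± 0.157 CPM, a log2 fold change of -1.93 (SE 0.0971, adjusted p = 2.10e-12). Cbx2 and Cbx8 lie close together on chromosome 11, at chr11:119022962-119031270, plus strand and chr11:119036305-119040969, minus strand. Cbx2 fell in both lines (-1.59 in ID8 and -2.38 in PMJ2R), while Cbx8 was not called in ID8 (0.24, adjusted p = 0.0658) and fell in PMJ2R (-0.58, adjusted p = 1.07e-04), where the call was lost with length and GC trends removed. In ID8 it stood at -0.20 on library totals. Cbx8 was called without ID8 rebastinib replicate 3 (log2 fold change 0.34, adjusted p = 0.0118).

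The HP1 proteins Cbx1 (HP1 beta), Cbx3 (HP1 gamma) and Cbx5 (HP1 alpha) bind methylated H3K9. Cbx5 was among the most abundant members per length in ID8 control cells. It was at 479, 517 and 475 CPM there and at 243, 262 and 262 CPM with rebastinib. In PMJ2R it was at 393, 412 and 365 CPM and 107, 107 and 102 CPM, a change of -1.89 (SE 0.0522, adjusted p = 1.06e-15) against -0.94 (SE 0.0696, adjusted p = 1.58e-08) in ID8. Cbx1 rose slightly in both lines (0.37, adjusted p = 1.29e-04, and 0.15, adjusted p = 0.00835), values that were -0.058 and -0.41 on library totals. Cbx3 was not called in ID8 (-0.053, and 0.13, also not called, with length and GC trends removed). It fell in PMJ2R, with a log2 fold change of -0.26 (SE 0.0557, adjusted p = 2.86e-04). The median of the 3 genes was -0.05 in ID8, or 0.13 with length and GC trends removed, and -0.26 in PMJ2R. The 8 Cbx3 pseudogenes held 0 to 13 counts per library, and how reads matching several places were counted is not given in the sources used here.

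Within the H3K36 role Nsd1 fell in both lines and Setd2 rose in both. Nsd1, which dimethylates H3K36, was at 122, 128 and 112 CPM in ID8 control and 16.7, 20.6 and 20.4 CPM with rebastinib. It was at 40.9, 44.9 and 41.9 CPM and 8.88, 10.1 and 9.45 CPM in PMJ2R, where it started lower. The log2 fold change was -2.65 (SE 0.0933, adjusted p = 1.53e-11) in ID8 and -2.16 (SE 0.0811, adjusted p = 4.36e-14) in PMJ2R. Its paralogs Nsd2 and Nsd3 had values nearer to 0. Nsd2 was not called in ID8 (-0.028; 0.34 and called higher with length and GC trends removed) and fell in PMJ2R, with a log2 fold change of -0.23 (SE 0.0456, adjusted p = 1.63e-04). Nsd3 was not called in either line (-0.12 and 0.041), turning to 0.27 in ID8 with those trends removed and to -0.52 in PMJ2R on library totals. Setd2, which trimethylates H3K36 behind elongating polymerase, rose by 0.19 (SE 0.0813, adjusted p = 0.0399) in ID8, a value of -0.24 on library totals, and by 0.60 (SE 0.0460, adjusted p = 8.51e-10) in PMJ2R, a value of 0.043 and not called on library totals. Setd2 was not called in ID8 without ID8 control replicate 1, ID8 control replicate 2, ID8 rebastinib replicate 2, ID8 control replicate 3 or ID8 rebastinib replicate 3, with log2 fold changes of 0.20, 0.22, 0.19, 0.14 and 0.15 in that order and adjusted p-values from 0.0588 to 0.172. The median of the 5 genes of this role was -0.12 in ID8, or 0.27 with length and GC trends removed, and 0.04 in PMJ2R, or -0.52 on library totals.

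Ash1l, a Trithorax enzyme for H3K36 dimethylation, moved in opposite directions. The ID8 control libraries had 101, 99.4 and 82.2 CPM and the treated ones 53.9, 59.8 and 73.9 CPM. The PMJ2R libraries had 92.8, 101 and 103 CPM and 174, 180.1 and 180.2 CPM. Groups did not overlap in either line, and the log2 fold change was -0.59 (SE 0.110, adjusted p = 1.88e-04) in ID8 and 0.85 (SE 0.0498, adjusted p = 1.89e-11) in PMJ2R.

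Of the other SET-domain genes, Setd3, the actin histidine methyltransferase, rose in both lines (0.67 and 0.28; -0.28 in PMJ2R on library totals). Setd4 fell in both lines, from 4.05 ± 0.623 to 1.59 ± 0.148 CPM in ID8 and from 4.05 ± 0.362 to 0.837 ± 0.330 CPM in PMJ2R (SD, n = 3). Its log2 fold changes were -1.35 (SE 0.20, adjusted p = 2.14e-05) and -2.27 (SE 0.232, adjusted p = 4.88e-08). Setd6, which methylates the NF-kappaB subunit RelA, rose in ID8 by 1.24 (SE 0.0937, adjusted p = 2.03e-08) and was not called in PMJ2R (0.12, adjusted p = 0.114; -0.44 on library totals). Setd6 was called without PMJ2R rebastinib replicate 3 (log2 fold change 0.18, adjusted p = 0.0388). Setd5, an atypical SET protein found with HDAC3 and NCoR, was at 230.2, 229 and 212 CPM in ID8 control and 195, 229 and 215 CPM in ID8 rebastinib, which overlap. It was at 137, 141 and 144 CPM and 322, 321 and 314 CPM in PMJ2R. The ID8 change was -0.068 (adjusted p = 0.402; 0.42 and called higher with length and GC trends removed) and the PMJ2R change 1.18 (SE 0.0439, adjusted p = 3.88e-14). The median of the 4 tested genes of this role was 0.30 in ID8 and 0.20 in PMJ2R, and -0.13 and -0.36 on library totals.

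Of the 5 tested H3K4 demethylases 3 rose and 1 fell in each line. Over all genes tested 38.4% rose and 42.0% fell in ID8, and 40.1% and 43.6% in PMJ2R. The median of the 5 was 0.25 in ID8 and 0.47 in PMJ2R, but -0.18 and -0.09 on library totals. Kdm5b, a Jumonji demethylase of trimethylated H3K4, had the largest increase of any member in either line. It was at 14.4, 16.4 and 19.1 CPM in PMJ2R control and 118, 111 and 112 CPM in PMJ2R rebastinib, a log2 fold change of 2.77 (SE 0.0774, adjusted p = 1.82e-15). In ID8 the control libraries had 46.7, 43.3 and 39.5 CPM and the treated ones 32.2, 39.2 and 41.4 CPM. These overlap, and the change was -0.20 (adjusted p = 0.0819), or 0.21 with length and GC trends removed. Kdm5b was called in ID8 without ID8 control replicate 3 or ID8 rebastinib replicate 3, with log2 fold changes of -0.27 and -0.26 in that order and adjusted p-values from 0.019 to 0.0431.

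Kdm1a (LSD1), the demethylase of the CoREST corepressor, rose in both lines, by 0.50 (SE 0.0671, adjusted p = 8.30e-06) in ID8, a value of 0.063 and not called on library totals, and by 1.18 (SE 0.0508, adjusted p = 2.54e-13) in PMJ2R. Kdm1b (LSD2), its paralog, rose in ID8 and fell in PMJ2R. It was at 46.4, 47.7 and 45.8 CPM in ID8 control and 70.2, 64.7 and 58.8 CPM in ID8 rebastinib, a log2 fold change of 0.47 (SE 0.0794, adjusted p = 7.82e-05) that was 0.032 and not called on library totals. The PMJ2R values were 53.0, 54.7 and 42.0 CPM and 31.3, 36.1 and 33.4 CPM, a log2 fold change of -0.57 (SE 0.0922, adjusted p = 3.40e-05). Kdm5a fell in ID8, with a log2 fold change of -1.19 (SE 0.110, adjusted p = 1.56e-07), and was not called in PMJ2R (-0.088, adjusted p = 0.207). Kdm5a was called without PMJ2R control replicate 3 (log2 fold change -0.13, adjusted p = 0.0339). Kdm5c, X-linked and abundant, rose by 0.25 (adjusted p = 0.00243) in ID8 and 0.47 (adjusted p = 1.42e-08) in PMJ2R, values that were -0.18 and -0.085 on library totals. The Y-linked Kdm5d had 0 counts in all 12 libraries.

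The H3K27 demethylases Kdm6a (UTX) and Kdm6b (JMJD3) both fell in ID8 and rose in PMJ2R on the TMM scale. Kdm6b, which macrophages are known to induce in inflammation, was at 73.3, 67.6 and 65.6 CPM in ID8 control and 11.5, 10.5 and 12.5 CPM with rebastinib. The PMJ2R values were 21.3, 22.4 and 31.2 CPM and 34.3, 35.1 and 34.0 CPM. The log2 fold change was -2.58 (SE 0.0920, adjusted p = 1.73e-11) in ID8 and 0.47 (SE 0.122, adjusted p = 0.00366) in PMJ2R, the latter being -0.091 on library totals. The PMJ2R control libraries spread more widely than the treated ones. Kdm6bos on the opposite strand shares 286 exon bases with Kdm6b.

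Kdm6a was at 78.9, 72.4 and 65.9 CPM in ID8 control and 41.5, 50.7 and 63.1 CPM in ID8 rebastinib. It was at 76.3, 77.4 and 74.1 CPM and 154, 161 and 167 CPM in PMJ2R. The groups did not overlap in either line, though in ID8 only narrowly, and the log2 fold changes were -0.48 (SE 0.121, adjusted p = 0.00214) and 1.08 (SE 0.0489, adjusted p = 5.05e-13).

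The Kdm4 genes, whose products act on trimethylated H3K9 and H3K36, had no common direction. Kdm4c rose in both lines (0.52 and 1.30, the first being 0.087 and not called on library totals) and Kdm4b fell in both (-0.92 and -1.21). Kdm4a had 85.7, 84.2 and 89.7 CPM in ID8 control and 76.5, 72.1 and 82.1 CPM in ID8 rebastinib, a log2 fold change of -0.17 (SE 0.0726, adjusted p = 0.0444) that was 0.16, and called higher, with length and GC trends removed. In PMJ2R it had 71.8, 79.2 and 81.8 CPM and 118, 126 and 119.8 CPM, a log2 fold change of 0.65 (SE 0.0556, adjusted p = 4.47e-09) that was 0.090 and not called on library totals. Kdm4a was not called in ID8 without ID8 control replicate 1, ID8 rebastinib replicate 1, ID8 control replicate 2, ID8 rebastinib replicate 2 or ID8 control replicate 3, with log2 fold changes of -0.18, -0.16, -0.20, -0.11 and -0.15 in that order and adjusted p-values from 0.0606 to 0.22. Kdm4d had at most 3 counts in any library and was not tested.

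Of the remaining demethylases, Kdm2a, which acts on dimethylated H3K36 at CpG islands, fell in both lines (-1.05 and -0.72), and its paralog Kdm2b was not called in ID8 (0.055; -0.38 on library totals) and fell in PMJ2R (-0.34, adjusted p = 1.94e-04; 0.0028 with length and GC trends removed). Kdm8 (JMJD5) fell in both, with log2 fold changes of -1.43 (SE 0.15, adjusted p = 5.91e-07) and -2.38 (SE 0.127, adjusted p = 4.76e-12). Kdm7a, which acts on H3K9 and H3K27, fell in ID8, with a log2 fold change of -0.69 (SE 0.136, adjusted p = 3.23e-04), and was not called in PMJ2R (-0.15, adjusted p = 0.0715). Kdm7a was called without PMJ2R control replicate 3 (log2 fold change -0.23, adjusted p = 0.0016). Kdm3b, an H3K9 demethylase, was not called in ID8 (-0.082; 0.40 with length and GC trends removed) and rose slightly in PMJ2R, by 0.14 (SE 0.0570, adjusted p = 0.0331), a value of -0.42 on library totals. The median of the 10 tested demethylases of H3K9, H3K27 and H3K36 was -0.58 in ID8 and -0.01 in PMJ2R, the latter turning to 0.25 with length and GC trends removed. Kdm3b was not called in PMJ2R without PMJ2R control replicate 1, PMJ2R rebastinib replicate 1, PMJ2R control replicate 2 or PMJ2R rebastinib replicate 2, with log2 fold changes of 0.076, 0.12, 0.12 and 0.16 in that order and adjusted p-values from 0.0558 to 0.206.

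The class I deacetylases Hdac1 and Hdac2, the catalytic pair of the SIN3, NuRD and CoREST complexes, rose in both lines on the TMM scale. Hdac2 went from 122 ± 4.09 to 207 ± 9.31 CPM in ID8 and from 113 ± 4.82 to 228 ± 6.38 CPM in PMJ2R (SD, n = 3), log2 fold changes of 0.77 (SE 0.0671, adjusted p = 9.00e-08) and 1.01 (SE 0.0477, adjusted p = 8.58e-13). Hdac1 rose by 0.56 (SE 0.0652, adjusted p = 1.82e-06) and 0.71 (SE 0.0499, adjusted p = 2.61e-10), and its ID8 value was 0.13 and not called on library totals. Hdac3, the enzyme of the NCoR complex, was not called in either line (-0.00075 and 0.10; -0.46 in PMJ2R on library totals), and Hdac8 fell in both (-0.39 and -0.46). The median of the 4 genes was 0.28 in ID8 and 0.40 in PMJ2R, and -0.15 in both lines on library totals.

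The class IIa deacetylases, signal-regulated repressors that shuttle between nucleus and cytoplasm, included 2 rises and 0 falls among 3 tested in ID8 and 1 rise and 3 falls among 4 in PMJ2R, with medians of 0.19 (-0.24 on library totals) and -1.64. Over all genes tested 38.4% rose and 42.0% fell in ID8, and 40.1% and 43.6% in PMJ2R. Hdac5 (ENSMUSG00000008855, chr11:102194432-102230166, minus strand) was at 77.2, 72.2 and 72.9 CPM in ID8 control and 107, 97.1 and 101 CPM with rebastinib. PMJ2R control cells had 39.2, 41.9 and 41.4 CPM and treated cells 10.5, 10.4 and 8.12 CPM. It rose by 0.46 (SE 0.0705, adjusted p = 3.15e-05) in ID8, a value of 0.023 and not called on library totals, and fell in PMJ2R, with a log2 fold change of -2.07 (SE 0.0896, adjusted p = 2.77e-13). Hdac4 rose in both lines, by 0.19 (SE 0.0779, adjusted p = 0.0332) in ID8 (-0.24 on library totals) and 1.19 (SE 0.0556, adjusted p = 7.83e-13) in PMJ2R. Hdac4 was not called in ID8 without ID8 control replicate 1, ID8 control replicate 2, ID8 rebastinib replicate 2 or ID8 control replicate 3, with log2 fold changes of 0.21, 0.21, 0.20 and 0.14 in that order and adjusted p-values from 0.0544 to 0.161. Gm26720 on the opposite strand shares 3536 exon bases with Hdac4.

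Hdac9 had 0 counts in the 6 ID8 libraries, which allows up to 0.0443 CPM over the 3 control and 0.0460 CPM over the 3 treated libraries (3 counts of the summed totals, counting error only). In PMJ2R it was at 56.6, 60.3 and 55.2 CPM in control and 23.0, 24.1 and 19.9 CPM with rebastinib, a log2 fold change of -1.36 (SE 0.0730, adjusted p = 5.40e-12). Hdac7 was not called in ID8 (0.013, from 197 ± 6.16 to 199 ± 8.17 CPM, SD, n = 3), with -0.42 on library totals. It fell in PMJ2R from a level that was already low, from 1.59 ± 0.574 to 0.415 ± 0.0569 CPM, a log2 fold change of -1.92 (SE 0.365, adjusted p = 9.97e-05).

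The class IIb enzymes Hdac6, a cytoplasmic tubulin deacetylase, and Hdac10, a polyamine deacetylase, and the class IV enzyme Hdac11 made up the remaining classes. Hdac6 fell in both lines (-0.73 and -0.86). Hdac11 was scarce and fell from 3.0 ± 0.294 to 0.638 ± 0.190 CPM in ID8 and from 0.919 ± 0.309 to 0.0850 ± 0.0976 CPM in PMJ2R (SD, n = 3). Its log2 fold changes of -2.19 (SE 0.257, adjusted p = 2.06e-06) and -3.37 (SE 0.618, adjusted p = 6.81e-05) have wide errors. Hdac10 was at 21.7, 19.2 and 21.5 CPM in ID8 control and 34.3, 29.8 and 29.6 CPM in ID8 rebastinib. PMJ2R control cells had 26.0, 22.6 and 24.3 CPM and treated cells 16.9, 19.5 and 18.6 CPM. It rose by 0.59 (SE 0.0937, adjusted p = 4.44e-05) in ID8, a value of 0.15 and not called on library totals, and fell in PMJ2R, with a log2 fold change of -0.40 (SE 0.0830, adjusted p = 2.22e-04), the latter call being lost (-0.059) with length and GC trends removed.

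Across both lines 26 of the 64 coding members tested in each were lower in both and 13 were higher in both (40.6% and 20.3%), beside 30.2% and 29.9% of the 12398 genes tested in both. The 13 that rose in both were Cbx1, Eed, Hdac1, Hdac2, Hdac4, Kdm1a, Kdm4c, Kdm5c, Kmt2c, Kmt5b, Setd2, Setd3 and Setdb2. Another 4 rose in ID8 and fell in PMJ2R (Ehmt2, Hdac5, Hdac10 and Kdm1b) and 4 fell in ID8 and rose in PMJ2R (Ash1l, Kdm4a, Kdm6a and Kdm6b), beside 5.58% and 4.33% of those genes. Hdac3, Kmt5a, Nsd3 and Setd7 were called in neither. On the TMM scale, on library totals and with length and GC trends removed alike, 3 members (Kmt5b, Setdb2 and Hdac2) were called higher in both lines and 23 lower in both, beside 13.1% and 26.1% of the 12398 genes. Of the 26 lower in both on the TMM scale, Dot1l, Ehmt1 and Setd1a were the exceptions. Under the same 3 scalings only Ash1l and Kdm6a of the 8 members called in opposite directions were still called so, both lower in ID8 and higher in PMJ2R, beside 1.19% of genes, and 0 members were called the other way, beside 1.22%. The log2 fold changes of the 64 genes had a Pearson correlation of 0.74 (Spearman 0.71) between the lines, beside 0.70 over the 12398 genes tested in both, a description across genes that share libraries, depth and length trends.

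**Figure D3:**
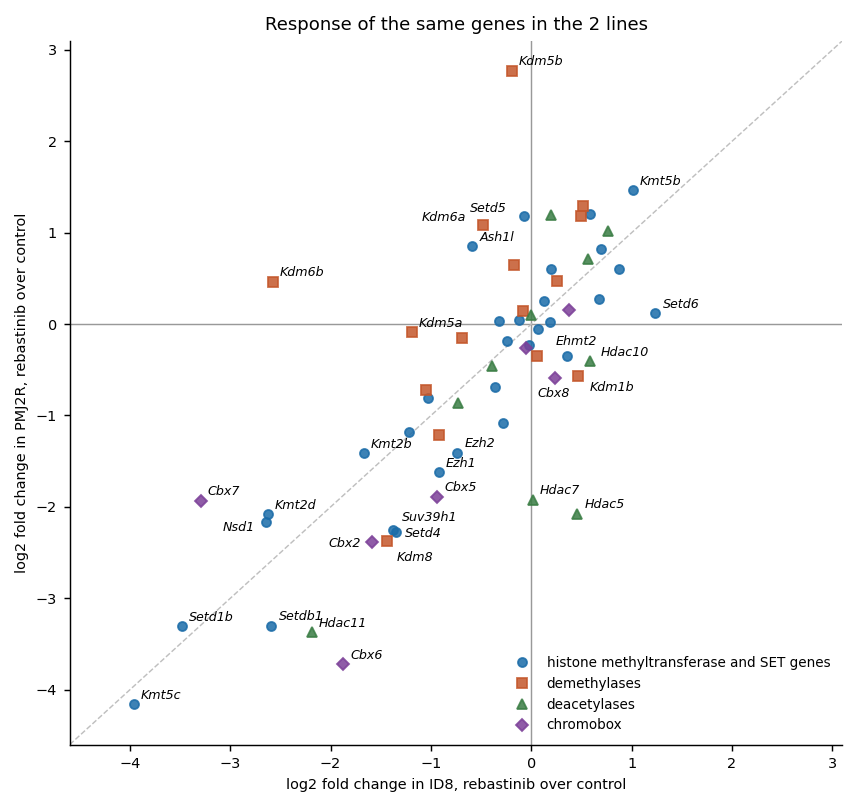
Log2 fold change after rebastinib in ID8 (x axis) and PMJ2R (y axis) for the reported coding members tested in both, marked by class, with a dashed line where the values are equal. Kdm5b and Kdm6b lie far above the line and Hdac5 and Cbx6 far below it, while Kmt5c and Setd1b lie on or near it.

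The difference of the response, PMJ2R minus ID8, was tested in a fit over all 12 libraries. It was higher in PMJ2R for 17 of the 65 coding members and lower for 24, beside 21.8% and 30.6% of all 16566 genes tested. The 8 members with the smallest p were Hdac5, with a difference in log2 fold change of -2.59 (SE 0.115, adjusted p = 1.49e-14), Kdm5b, with 2.91 (SE 0.138, adjusted p = 5.57e-14), Kdm6b, with 2.98 (SE 0.162, adjusted p = 5.79e-13), and Cbx6, with -1.90 (SE 0.123, adjusted p = 1.10e-11). They were followed by Setd5, with 1.19 (SE 0.0885, adjusted p = 1.02e-10), Cbx5, with -1.0 (SE 0.0851, adjusted p = 9.18e-10), Ash1l, with 1.38 (SE 0.129, adjusted p = 5.04e-09), and Kdm6a, with 1.51 (SE 0.139, adjusted p = 8.32e-09). Each of the 8 members called in opposite directions was called in this test too. That follows largely from how they were chosen, since the test uses the same libraries. For those not yet given, the difference was -1.09 (SE 0.123, adjusted p = 8.25e-08) for Kdm1b, -1.05 (SE 0.129, adjusted p = 3.04e-07) for Hdac10, -0.76 (SE 0.0859, adjusted p = 8.49e-08) for Ehmt2 and 0.76 (SE 0.0970, adjusted p = 5.44e-07) for Kdm4a. On library totals and with length and GC trends removed these 12 differences kept their sign, and over all alternatives run their highest adjusted p was 9.46e-06, that of Hdac10.

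**Figure D4:**
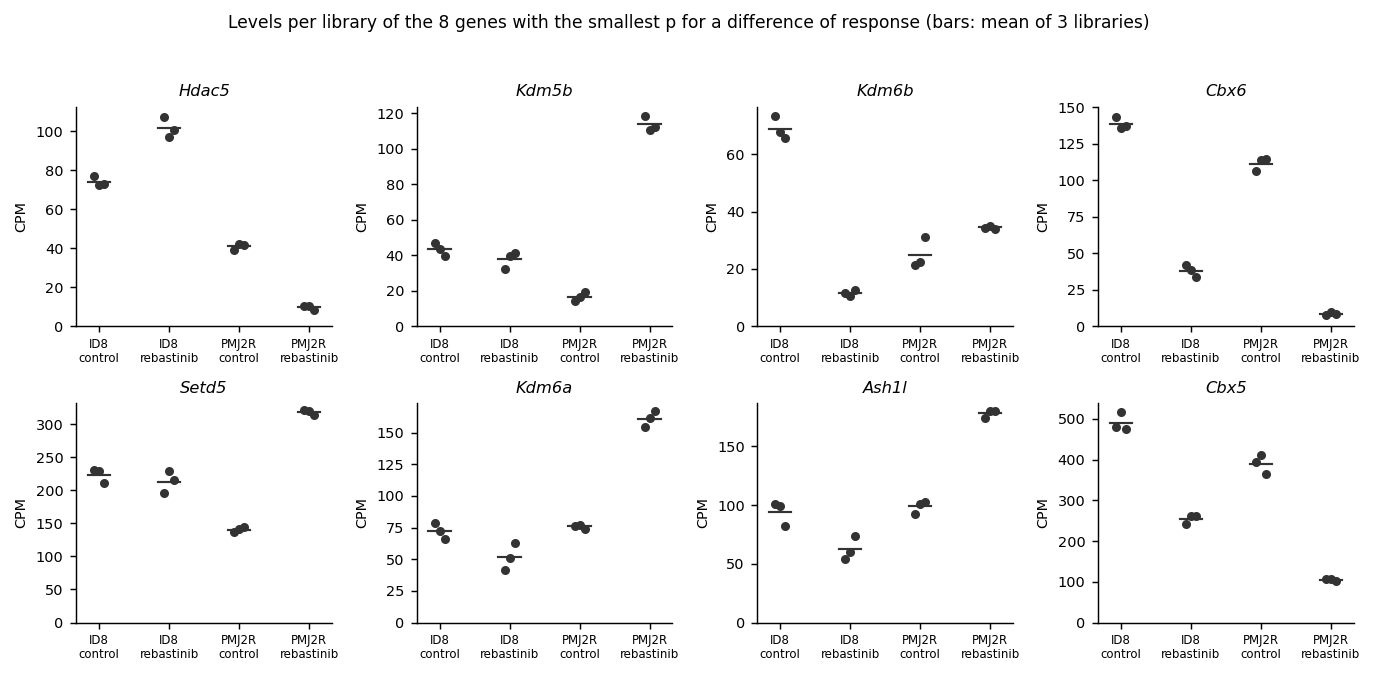
CPM of the 8 members with the smallest p for a difference of response, by group, as points for the 3 libraries and bars for their mean (y axes start at 0). Kdm5b and Setd5 separate only in PMJ2R, Hdac5, Kdm6b, Kdm6a and Ash1l go in opposite directions on the TMM scale (Kdm6b in PMJ2R turned to -0.091 on library totals), and Cbx6 and Cbx5 fall in both lines.

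Untreated PMJ2R and ID8 cells differed in 14 of 65 coding members. At an adjusted p under 0.05 and at least a 2-fold difference, 7 of 65 coding members were higher in PMJ2R and 7 lower (10.8% each), beside 18.1% and 25.6% of 15924 genes tested. With length and GC trends removed 18 were higher and 4 lower, beside 19.4% and 26.4% of all genes, and the members' median moved from 0.05 to 0.27. The origin of the lines and their handling cannot be told apart here. The values in this comparison are on a scale fitted to the 6 control libraries.

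The largest contrasts were in class IIa deacetylases. Hdac9, with 0 counts in ID8, was at 66.3, 70.5 and 66.1 CPM in PMJ2R control, at least 1573-fold higher, computed on library totals against a floor of 3 counts over the ID8 control libraries. Hdac7 showed the reverse, with 243, 229.9 and 233 CPM in ID8 and 1.61, 1.36 and 2.69 CPM in PMJ2R, a log2 difference of -6.97 (SE 0.123, adjusted p = 1.16e-19). Hdac4 and Hdac5 were present in both lines and were not called at 2-fold, though Hdac4 was with length and GC trends removed. On the same scale Hdac7 had 34.9 ± 1.05 CPM per kilobase (SD, n = 3) in ID8, the fifth highest of the members there per summed exon length, and 0.279 ± 0.105 in PMJ2R.

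Among members with at least 10 CPM in the higher line, Cbx7, Setd2, Eed and Cbx2 followed Hdac9 as the largest differences towards PMJ2R. Cbx7 had 4.68, 4.92 and 4.94 CPM in ID8 and 26.1, 24.2 and 27.6 CPM in PMJ2R, a log2 difference of 2.42 (SE 0.0979, adjusted p = 6.54e-15). Cbx2 had 17.4, 16.6 and 18.0 CPM and 35.8, 38.5 and 39.5 CPM, a difference of 1.13 (SE 0.0741, adjusted p = 1.94e-11). Both are Polycomb readers. Setd2 had 122, 126 and 112 CPM and 270.4, 293 and 298 CPM, a difference of 1.26 (SE 0.0634, adjusted p = 2.47e-13). Eed had 44.3, 48.3 and 48.5 CPM and 105, 104 and 106 CPM, a difference of 1.16 (SE 0.0621, adjusted p = 7.08e-13). In none of these did the lines overlap.

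Lower in PMJ2R were Nsd1, Kdm6b, Kdm5b and Ezh1, besides Hdac7. Nsd1 had 146, 154 and 133 CPM in ID8 and 47.8, 52.5 and 50.1 CPM in PMJ2R, a log2 difference of -1.52 (SE 0.0672, adjusted p = 2.75e-14). Kdm6b had 87.8, 81.4 and 77.9 CPM and 24.9, 26.2 and 37.3 CPM, a difference of -1.48 (SE 0.126, adjusted p = 2.89e-07). Kdm5b had 56.0, 52.2 and 47.0 CPM and 16.9, 19.1 and 22.9 CPM, a difference of -1.40 (SE 0.0943, adjusted p = 1.04e-10). Kdm5b and Kdm6b, lower in untreated macrophages, were also the named members whose response exceeded that of ID8 most, and these comparisons share the control libraries. With length and GC trends removed Nsd1, Kdm6b and Kdm5b no longer reached the threshold, at -0.94, -0.74 and -0.84. Ezh1, which outlasts Ezh2 in resting cells, had 78.4, 77.3 and 76.7 CPM and 34.8, 31.9 and 33.0 CPM, a difference of -1.22 (SE 0.0632, adjusted p = 3.99e-13).

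Per summed exon length, Cbx5, Kmt5a, Ehmt2 and Kdm5c were the 4 most abundant members in both lines. The order of genes given here holds for that length only, which can differ from that of the longest transcript. Summed exons and longest transcript were 5307 and 2739 bases for Kmt5a, 5489 and 4026 for Ehmt2, and 9006 and 8803 for Cbx5. The leading members in ID8 control were Cbx5 with 65.2 ± 3.47, Kmt5a with 61.7 ± 0.765 and Ehmt2 with 50.5 ± 1.78 CPM per kilobase (SD, n = 3). On summed exon length Cbx5 and Kmt5a did not differ beyond the spread of the libraries, while Ehmt2 lay below both. That spread does not cover the choice of length. In PMJ2R control Ehmt2 led with 66.6 ± 2.08, then Kmt5a with 61.8 ± 8.80 and Kdm5c with 51.2 ± 2.14 and Cbx5 with 51.0 ± 2.48. On the same length Ehmt2 and Kmt5a did not differ beyond the spread of the libraries there, nor did Kdm5c and Cbx5. Among the scarcest tested members were Setd4, with 0.899 ± 0.132 in ID8 and 0.889 ± 0.0875 in PMJ2R, and Hdac11, with 0.931 ± 0.0875 and 0.282 ± 0.0977 CPM per kilobase.

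**Figure D5:**
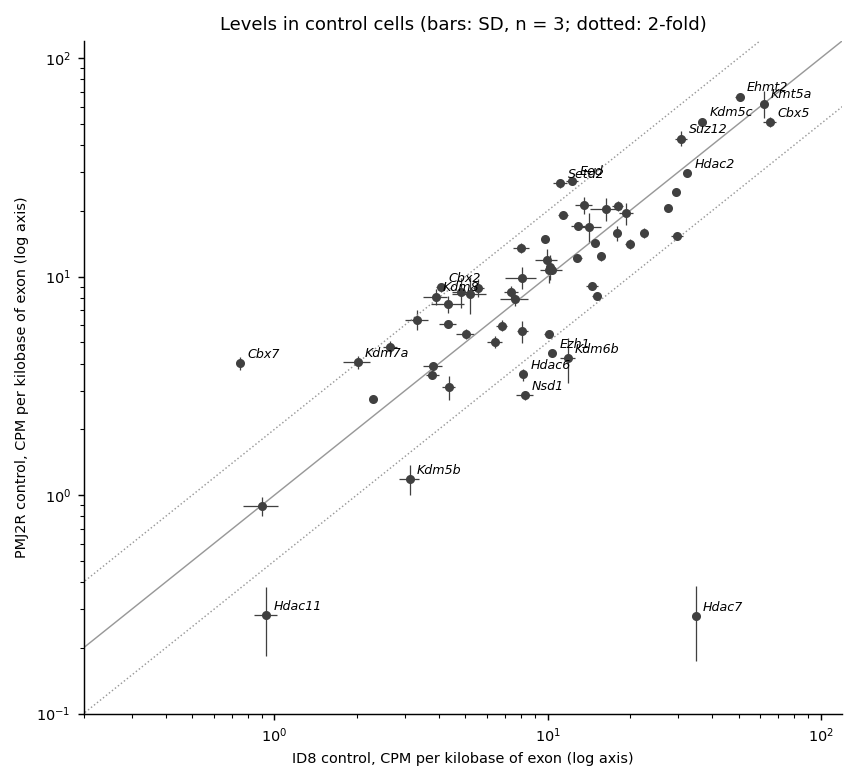
Level per kilobase of exon in ID8 control (x axis) and PMJ2R control (y axis), both on log axes, with the SD of 3 libraries as bars, a solid line of equality and dotted lines at 2-fold. Hdac7 lies far below the lines and Cbx7 above them, and Hdac9, Kdm4d and Kdm5d, at or near 0 in a line, are not drawn.

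Other genes of the same pathways were counted from lists that hold no members. Of 20 partners of PRC1 and PRC2, 7 rose and 9 fell in ID8 and 10 rose and 7 fell in PMJ2R, and the median of the list was -0.01 in ID8, which turned to 0.16 with length and GC trends removed, and 0.14 in PMJ2R, which turned to -0.41 on library totals. The histone chaperone Rbbp7, a PRC2 and deacetylase subunit, rose by 0.89 (SE 0.0646, adjusted p = 1.27e-08) in ID8 and 0.66 (SE 0.0468, adjusted p = 2.61e-10) in PMJ2R, whereas Pcgf6, a subunit of a variant PRC1, fell, with -2.0 (SE 0.0975, adjusted p = 2.93e-10) and -2.21 (SE 0.0734, adjusted p = 9.04e-15). Of 11 tested core subunits of the MLL and SET1 complexes, 7 rose and 3 fell in ID8 (median 0.40, or -0.03 on library totals) and 3 rose and 5 fell in PMJ2R (median -0.10). Wdr5, shared by these complexes, rose by 0.73 (SE 0.0687, adjusted p = 2.03e-07) and 0.59 (SE 0.0528, adjusted p = 7.97e-09), the latter being 0.032 and not called on library totals, and Hcfc1, another shared subunit, fell, with -1.55 (SE 0.0966, adjusted p = 2.89e-09) and -1.68 (SE 0.0622, adjusted p = 1.13e-13).

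Of 22 deacetylase partners, 12 rose and 8 fell in ID8 (median 0.21, or -0.23 on library totals) and 9 rose and 10 fell in PMJ2R (median -0.02, or 0.25 with length and GC trends removed). Sin3a fell in both lines (-0.38 and -1.62) and its paralog Sin3b rose in both (0.95 and 0.72), the paralogous scaffolds of one corepressor complex. Among 10 histone acetyltransferases, which oppose the deacetylases, 2 rose and 6 fell in ID8 (median -0.53) and 3 rose and 7 fell in PMJ2R (median -0.62). Kat8, the H4K16 acetyltransferase, fell, with -2.99 (SE 0.158, adjusted p = 6.17e-10) and -3.06 (SE 0.146, adjusted p = 1.0e-12), and Kat7 rose by 0.84 (SE 0.0666, adjusted p = 3.05e-08) and 1.04 (SE 0.0431, adjusted p = 1.57e-13). Of the 7 sirtuins, the NAD-dependent deacetylases, 3 rose and 3 fell in ID8 and 2 rose and 5 fell in PMJ2R (medians -0.27 and -0.49), with Sirt6 at -2.10 and -1.33.

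The list of DNA methyltransferase and TET genes also held Uhrf1. All 6 tested genes of the 8 listed fell in both lines, with medians of -0.86 and -1.10. With length and GC trends removed 4 were lower and 1 higher in ID8 and 5 lower in PMJ2R. Uhrf1, which recruits DNMT1 to replicated DNA, fell, with -0.81 (SE 0.0683, adjusted p = 6.07e-08) in ID8 and -2.46 (SE 0.0531, adjusted p = 6.53e-17) in PMJ2R. Dnmt3a, a de novo enzyme, had -0.22 (SE 0.0915, adjusted p = 0.0406) and -2.33 (SE 0.0602, adjusted p = 4.71e-16), the ID8 value being 0.30 with those trends removed. Of 8 tested arginine methyltransferases 1 rose and 3 fell in ID8 and 2 rose and 4 fell in PMJ2R (medians -0.16 and -0.12, or 0.10 and 0.04 with those trends removed), Prmt1 rising by 0.94 and 0.76. Of 12 tested JmjC and SMYD genes outside the member families 4 rose and 8 fell in ID8 and 4 rose and 7 fell in PMJ2R (medians -0.67 and -0.53). All these counts stand beside the same background of called genes in each comparison, 38.4% higher and 42.0% lower in ID8 and 40.1% and 43.6% in PMJ2R, and are descriptions of the lists. The genes named from them were chosen after their values were seen.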

How the data were processed

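RNA-seq gene counts of 12 libraries were analysed, 3 in each of 4 groups taken from the sample titles. The authors deposited raw counts per Ensembl gene, per the file headers and values; the tools listed in the submitters' processing notes are STAR 2.6.1c, featureCounts, FastQC and DESeq2, with the build GRCm38. The annotation, the strand setting and the treatment of multi-mapping reads are not given there. Symbols were matched through GENCODE vM21, which named 55240 of the 55421 identifiers.

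Counts were tested with edgeR 4.0.16 (R 4.3.3): TMM scaling, filterByExpr, robust quasi-likelihood F-test, Benjamini-Hochberg adjustment over all genes tested, threshold 0.05. Each line was fitted alone for rebastinib against control, all 12 libraries for the difference of the response, and the 6 control libraries for PMJ2R against ID8, where a 2-fold difference was also required. CPM values are counts scaled to TMM-adjusted totals within the libraries of the comparison, and were divided by the summed exon length to compare genes. Length and GC trends were removed with spline offsets (5 degrees of freedom each, prior count 1). Alternatives were DESeq2 1.42.0 and the settings named in the closing section. The fits were tested on simulated data in which few genes changed, in both directions, at a fixed spread and without a length or composition shift. Such data cannot check the TMM scale or the removal of trends in libraries where most genes were called. Depth was 19025504 to 27070556 counts per library, and floors use 3 counts.

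Per-library values are given for the 8 members with the smallest p in each rebastinib comparison and for the difference of the response, for all members called in opposite directions, and for the 5 per direction with the largest fold between control cells among those with at least 10 CPM in the higher line. Up to 2 genes per pathway list were named. The members, roles and lists were chosen with earlier results of these data known. Of the genes that the symbol rule covers, 2 are not reported here, 1 of which is counted in the totals. No libraries of a group agreed within sampling noise, and all were kept. Promoters come from RefSeq (GRCm38.p6).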

Additional observations from a re-analysis of the deposited data

Results flagged for a closer look

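The response to rebastinib differed between the lines, by the test of the difference itself (edgeR, PMJ2R minus ID8, log2 scale), in 12 members that the rules for named genes single out. These rules used the p-values of this same test or the calls in each line, so that result follows largely from the choice. Of all 65 coding members tested, 17 were higher and 24 lower for this difference, beside 21.8% and 30.6% of 16566 genes. The response was higher in PMJ2R for Kdm6b, by 2.98, for Kdm5b, by 2.91, for Kdm6a, by 1.51, for Ash1l, by 1.38, for Setd5, by 1.19, and for Kdm4a, by 0.76. These are demethylases of H3K27 and H3K4, an H3K36 methyltransferase, an atypical SET protein and a demethylase of H3K9 and H3K36. It was lower in PMJ2R for Hdac5, at -2.59, for Cbx6, at -1.90, for Kdm1b, at -1.09, for Hdac10, at -1.05, for Cbx5, at -1.0, and for Ehmt2, at -0.76. With length and GC trends removed all 12 kept the sign of this difference. The share of counts overlapping ribosomal RNA rose further in treated PMJ2R than in treated ID8 libraries, and its part in these differences was not tested.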

How the results depend on the processing

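Depth limits the scarce members, among them Hdac11, Setd4, Cbx7 in ID8 and Hdac7 in PMJ2R. The counts of called members moved by over 1.5 times in few settings. On library totals 6 members were higher in ID8 and 12 in PMJ2R, which follows from the lower scale. With length and GC trends removed 31 were higher in ID8, and 18 were higher and 4 lower in PMJ2R control cells, where dropping the minimum fold gave 29 and 24. With RLE size factors the difference of the response was higher for 26 members. Of all 16566 genes 4260 were then higher, beside 3618 on the TMM scale, and their median moved from -0.10 to 0.019. The part of this shift in the count of members was not tested. With 1 library left out, 16 to 19 members were higher and 31 to 34 lower in ID8, 19 to 22 and 36 to 38 in PMJ2R, 16 to 22 and 21 to 27 for the difference, and 5 to 7 and 7 to 7 between control cells. Equal replicate numbers did not pair the libraries (correlations of deviations from -0.14 to 0.08), and with a replicate block 16 were higher and 32 lower in ID8, 21 and 36 in PMJ2R, 17 and 23 for the difference, and 7 and 7 between control cells. In both lines Kmt5c, Setdb1, Nsd1, Kmt2d, Setd1b, Cbx6, Kmt2b, Cbx5, Kmt5b and Suv39h1 kept direction and call under every alternative run.

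On library totals the log2 fold change turned in ID8 for Cbx1 (-0.058), Ehmt2 (-0.085), Hdac4 (-0.24), Hdac7 (-0.42), Kdm2b (-0.38), Kdm5c (-0.18), Kmt5a (-0.36), Setd2 (-0.24), Setd7 (-0.25) and Suv39h2 (-0.31). In PMJ2R it turned for Cbx1 (-0.41), Hdac3 (-0.46), Kdm3b (-0.42), Kdm5c (-0.085), Kdm6b (-0.091), Kmt2e (-0.52), Nsd3 (-0.52), Setd3 (-0.28), Setd6 (-0.44), Setd7 (-0.53) and Suv39h2 (-0.31). Without an expression filter it turned in PMJ2R for Cbx1 (-0.056), Kdm3b (-0.068), Kmt2e (-0.17), Nsd3 (-0.16) and Setd7 (-0.18). On the main scale these were 0.15, 0.14, 0.034, 0.041 and 0.025 in that order, so the values moved down by a similar amount. The TMM factors were computed after the filter, so this setting has a scale of its own. The sign of small PMJ2R values thus rests on the filter too, and the part of the scale was not tested. With length and GC trends removed the log2 fold change turned in ID8 for Dot1l (0.17), Ehmt1 (0.058), Kdm3b (0.40), Kdm4a (0.16), Kdm5b (0.21), Nsd2 (0.34), Nsd3 (0.27), Setd1a (0.010) and Setd5 (0.42), and in PMJ2R for Dot1l (0.28), Ehmt2 (0.089), Kdm2b (0.0028) and Kmt5a (0.20). The difference of the response then turned for Kmt2c (-0.0018), Kmt5b (-0.017), Nsd1 (-0.075) and Nsd3 (-0.36). Each value listed was called under the setting or on the main scale. A turn called under neither, such as that of Cbx3 in ID8 to 0.13 with those trends removed, is not listed.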
